A study of Mus musculus with 12 samples.

Results

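Zinc finger genes named Zfp and a number were followed in H9c2 cells, a cardiomyoblast line that the study describes as rat, after doxorubicin (DOX) with and without a protective agent. A gene was taken as expressed when it was protein-coding, carried such a name and had an FPKM of at least 1 in each of the 3 untreated libraries. This gave 205 of the 367 Zfp genes listed, and the same cut left 9733 of 22058 protein-coding genes, which include the 205 and serve as the comparison set. FPKM divides the fragments of a gene by its length in kilobases and by a measure of library size that the study set. The 4 groups of 3 libraries each were untreated cells (Unt), cells given DOX (DOX), cells given DOX with dexrazoxane, a clinical cardioprotectant (D_DXZ), and cells given DOX with magnesium hexacyanoferrate nanocatalysts (D_MgHCF). Treatment lasted 6 h, the cells were wild type, and the 3 treated groups all received DOX. The doses in the sequenced cells are not given in the sources used here, and nothing in the labels says that replicates came from separate cultures, so that p-values measure the spread between these libraries, which may be technical. The libraries held 16626514 to 19365119 reads on genes.

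Most Zfp proteins bind DNA through C2H2 zinc fingers, short loops held by a zinc ion that each read a few bases. The largest class carries a KRAB domain, which recruits the corepressor Trim28 (KAP1), the histone methyltransferase Setdb1 and heterochromatin proteins, and much of this class holds retroelements silent. The name is also given to proteins of other kinds, such as the RNA-decay factor Zfp36. According to the family column of the deposited table, 84 of the 205 were KRAB genes, 34 zf-C2H2, 9 SCAN and 2 BTB, 1 each was zf-AD and zf-CCCH, and 74 had no family. Coding sequences of the GENCODE M21 annotation held 0 to 36 C2H2 finger patterns per gene, with a median of 9, and no finger pattern was found in 7 genes (Zfp365, Zfp703, Zfp330, Zfp36, Zfp503, Zfp185 and Zfp839). The genes cluster in the mouse genome, with 51 on chromosome 7, 28 on chromosome 17 and 16 on chromosome 8.

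The study calls the cells cardiomyoblasts, and some myoblast markers were listed at or near 0 in Unt. A listed 0 need not mean absence, since reads of a rat line were placed on mouse genes. Of 8 myoblast and smooth muscle markers, Acta2 and Vim made up nearly all of the summed FPKM, with means in Unt of 293 and 243, while Myod1 and Myog were listed at 0 in Unt and desmin (Des) had a mean of 1.46. The summed FPKM of these 8 markers lay between 484 and 593 for Unt, between 2354 and 3170 for DOX, between 1920 and 2590 for D_DXZ and between 303 and 599 for D_MgHCF. The FPKM of all genes did not sum to the same total either, with 216899 to 230292 in Unt and 498756 to 627769 in DOX, and as a share of that total the 8 markers took between 0.223% and 0.258% for Unt, between 0.472% and 0.505% for DOX, between 0.4295% and 0.471% for D_DXZ and between 0.138% and 0.206% for D_MgHCF. The 6 cardiomyocyte markers summed to at most 1.76 FPKM in any library, with Tnnt2 the most abundant in DOX at a mean of 0.903, and the 6 markers of other cell types to at most 3.12, reached in D_MgHCF replicate 1. Of the latter, 3 of the 5 tested rose in D_MgHCF against DOX, where 31.4% of all 25044 genes tested rose, and Gfap was the most abundant there at a mean of 0.957. The part of these marker shifts in the Zfp results was not tested. In bulk RNA, fewer cells of a type and less RNA per cell cannot be told apart. The table pairs reads of a rat line with mouse genes, and how this affected single Zfp genes was not tested.

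By their median, the Zfp genes stood highest in untreated cells and lowest with DOX alone. D_MgHCF lay nearer to Unt while D_DXZ lay nearer to DOX. The genes were chosen by their level in Unt, so the rank of Unt is partly fixed by the choice. The nearness of D_MgHCF to Unt depended on the scaling. After quantile normalization the median difference of D_MgHCF was 0.32 from DOX and -0.38 from Unt. The median of the 205 genes on the log2(FPKM + 1) scale was 2.10, 2.08 and 1.98 in the Unt libraries. It was 1.25, 1.14 and 1.05 in DOX, 1.53, 1.36 and 1.24 in D_DXZ, and 1.81, 1.87 and 1.79 in D_MgHCF. The DOX libraries thus lay below every Unt and every D_MgHCF library, while D_DXZ overlapped DOX. Over all 9733 genes the medians spanned a narrower range, from 3.24 to 3.28 for Unt and 2.95 to 2.96 for DOX. D_DXZ lay at 2.95 to 2.98 and D_MgHCF at 3.07 to 3.19. This range is partly set by the scaling. The library factors of the FPKM lay within 0.0103 log2 units of factors that equalize the median gene ratio between libraries. With every library scaled to the same sum (TPM), the median difference of the 9733 genes was -1.41 for DOX against Unt and 1.06 for D_MgHCF against DOX.

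**Figure D1:**
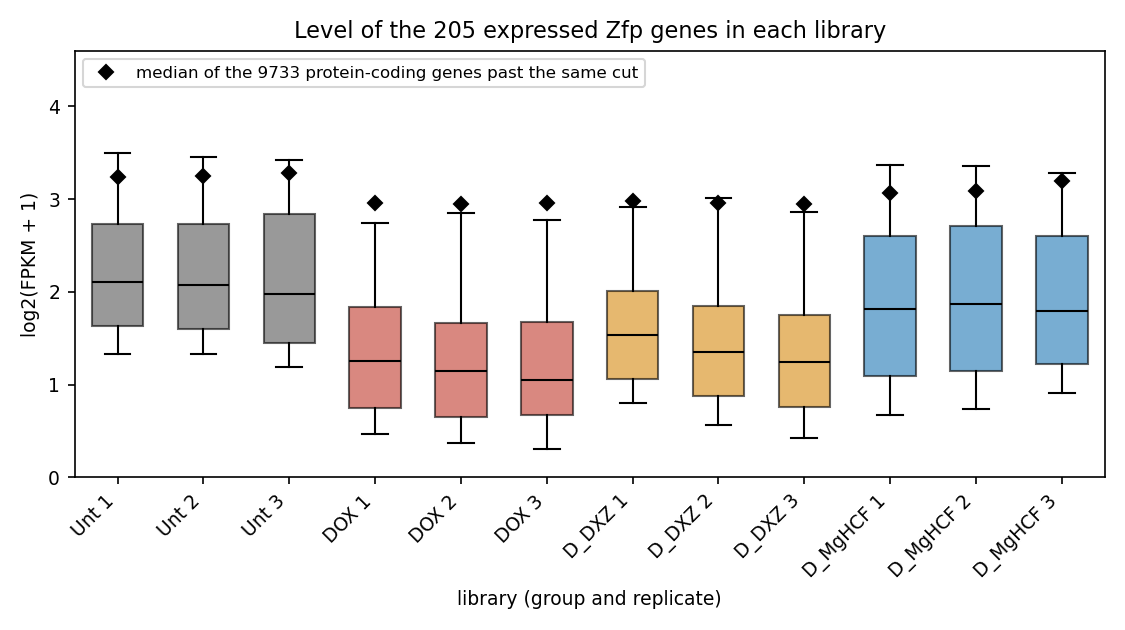
Each box spans the quartiles of log2(FPKM + 1) over the 205 expressed Zfp genes in 1 library, with the median as a line and whiskers at the 10th and 90th percentiles, and diamonds mark the median of all 9733 protein-coding genes past the same cut. The Zfp medians lie at 1.98 to 2.10 in Unt, at 1.05 to 1.25 in DOX and at 1.79 to 1.87 in D_MgHCF. The diamonds lie between 2.95 and 3.28, a range partly set by the scaling.

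The same order held for the share of reads, with the same limit on the rank of Unt. Zfp genes took between 0.711% and 0.761% of the reads on genes in Unt, while DOX had 0.199% to 0.239%, D_DXZ 0.252% to 0.328% and D_MgHCF 0.516% to 0.660%, with no overlap between any of the 4 ranges. The cut put all 205 genes at an FPKM of at least 1 in Unt. In the DOX libraries 125, 116 and 108 of them (61.0%, 56.6% and 52.7%) had this level. The counts were 160, 139 and 128 in D_DXZ (78.0%, 67.8% and 62.4%) and 160, 168 and 175 in D_MgHCF (78.0%, 82.0% and 85.4%). Of the 9733 genes, 92.1%, 89.2% and 88.1% had it in DOX. Their shares were 94.7%, 92.3% and 90.5% in D_DXZ and 95.2%, 95.3% and 96.2% in D_MgHCF. By their median, the Zfp genes lay closer to the cut in Unt than the 9733 genes. Replicate 1 of DOX and replicate 1 of D_DXZ had the highest Zfp level of their groups by the median, the count and the share of reads. The number of genes of any kind with a read was highest in D_MgHCF, at 23368 to 25456, with 20160 to 20660 in Unt, 18530 to 20381 in DOX and 19413 to 19662 in D_DXZ, of which Unt and DOX overlap, and its part in the Zfp results was not tested. The low levels limited precision, as 24 of the 205 genes had fewer than 10 reads in at least 1 library and 2 had none in at least 1 library.

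The cut itself used the Unt libraries, so the comparisons with Unt, calls included, are a description of the chosen genes, and nothing is read from their counts. The median difference of the 205 genes between DOX and Unt was -0.92 on the log2(FPKM + 1) scale, against -0.13 over the 9733 genes and -0.45 over the 5430 of these with a mean below 10 FPKM in Unt. In the fit over all genes, 153 Zfp genes were called lower in DOX and 7 higher, where the background was 39.4% lower and 34.8% higher. For D_DXZ against Unt the median was -0.75, with 136 called lower and 5 higher beside a background of 37.6% and 30.3%. The median of D_MgHCF against Unt was -0.35, with 90 called lower and 26 higher beside a background of 33.1% and 20.5%. These 3 comparisons share the Unt libraries that chose the genes.

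Zfp146, a protein built almost wholly of zinc fingers, was the gene furthest below Unt in DOX. Its FPKM was 11.02, 11.1 and 9.75 in Unt, 1.11, 1.33 and 0.846 in DOX, 4.91, 2.59 and 2.36 in D_DXZ, and 3.16, 4.30 and 3.95 in D_MgHCF. All DOX libraries lay below all others, and no library of a treated group came near the Unt level. Zfp213, a SCAN gene, stood at 5.71, 6.04 and 6.89 FPKM in Unt and at 0.690, 0.379 and 0.324 in DOX, the latter from 28, 13 and 10 reads. The other 6 genes furthest below Unt were Zfp212, Zfp609, Zfp830, Zfp282, Zfp768 and Zfp1, with differences from -2.23 to -2.02. Of these, Zfp830, a nuclear protein linked to splicing and genome stability, went from 8.27, 7.87 and 7.72 FPKM in Unt to 1.78, 0.588 and 0.706 in DOX.

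Of the 205 genes, 7 were called higher in DOX than in Unt, namely Zfp326, Zfp692, Zfp106, Zfp207, Zfp346, Zfp185 and Zfp219. Zfp326, which works in splicing beside RNA polymerase II, had 4.79, 4.38 and 3.36 FPKM in Unt and 8.84, 10.7 and 10.1 in DOX. Zfp106, an RNA-binding protein needed for motor neuron and muscle upkeep, had 21.8, 21.6 and 21.8 FPKM in Unt and 34.8, 41.6 and 45.6 in DOX. In the family column none of the 7 was a KRAB gene, beside 84 of all 205. This describes genes chosen through Unt, and nothing is read from it. The calls of Zfp219 and Zfp346 were the least stable of the 7, with the same direction and call under 9 and 10 of 21 alternatives, and were lost without single libraries of Unt or DOX. When every library was scaled to the same sum of length-normalized values (TPM) in place of FPKM, the median of the 9733 genes moved from -0.13 to -1.41, and all 7 genes had a difference below 0, from -0.87 (Zfp346 and Zfp219) to -0.11 (Zfp326).

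The comparisons among the 3 treated groups do not contrast with Unt, although the Unt libraries enter their error through the shared fit. D_MgHCF against DOX asks whether MgHCF changed Zfp expression in DOX-treated cells. Here 120 of the 205 genes rose and 16 fell, 58.5% and 7.80%, while the background was 35.4% higher and 39.5% lower. Zfp genes are low expressed, and below a mean of 10 FPKM in Unt 59.9% of the Zfp genes rose and 4.95% fell, against 45.8% and 24.3% of all genes at that level. The median difference was 0.59 on the log2(FPKM + 1) scale, against -0.02 over the 9733 genes and 0.35 over those with a mean below 10 FPKM in Unt. In 126 genes all 3 D_MgHCF libraries lay above all 3 DOX libraries and in 17 all lay below, beside backgrounds of 36.8% and 39.5%. Taken library by library against the mean of DOX, the median of the Zfp genes lay above the median of the comparison set by 0.657 ± 0.084 (SD, n = 3). With TPM the comparison set itself moved to a median of 1.06, with 183 Zfp genes called higher and 2 lower where the background was 64.2% and 13.5%, and the gap between the 2 medians was 0.65, against 0.62 with FPKM. Quantile normalization lowered both the Zfp median and the gap to 0.32.

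**Figure D2:**
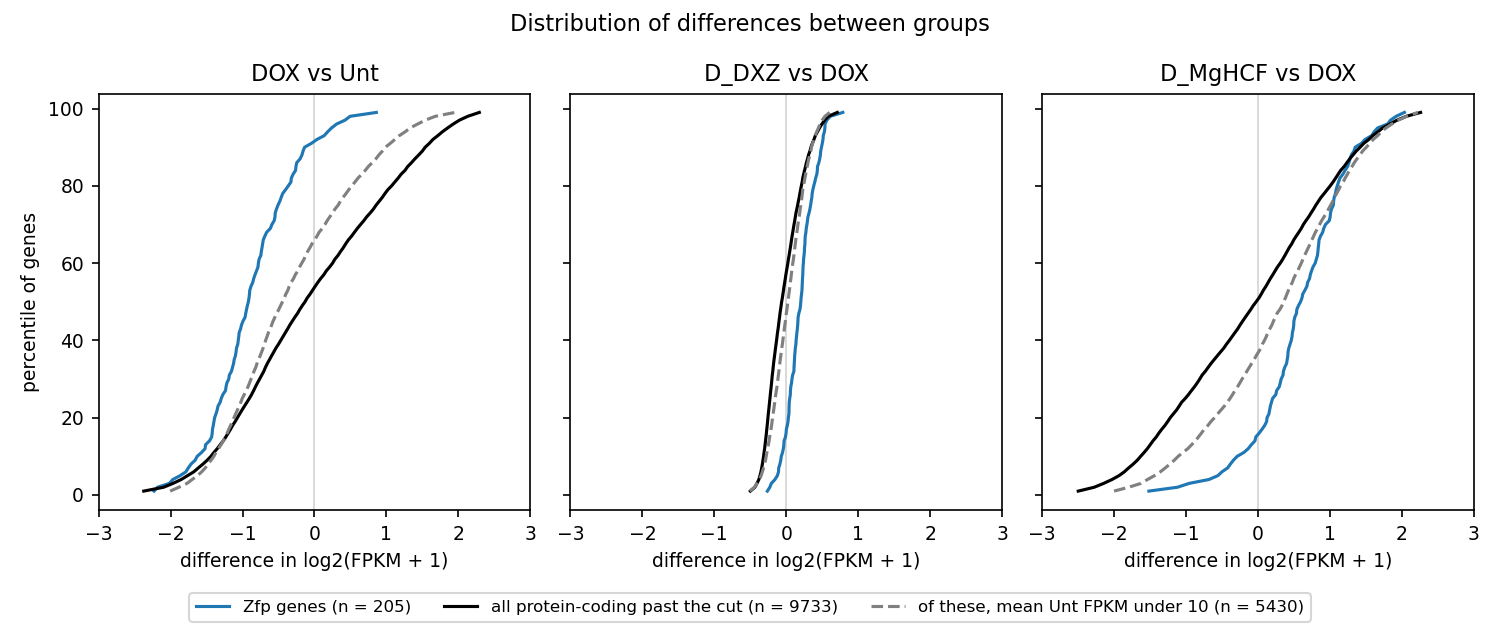
Percentile curves of the difference in log2(FPKM + 1) for 3 comparisons, with the 205 Zfp genes in blue, the 9733 protein-coding genes past the cut in black and the 5430 of these with a mean below 10 FPKM in Unt as a dashed line. The Zfp curve lies to the left for DOX against Unt (median -0.92) and to the right for D_MgHCF against DOX (median 0.59), and for D_DXZ against DOX all curves are steep, with a Zfp median of 0.20.

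Zfp46, a KRAB gene, rose the most. Its FPKM was 2.15, 1.36 and 1.24 in DOX and 10.3, 12.0 and 9.02 in D_MgHCF, a difference of 2.16 ± 0.17 (SE, limma adjusted p = 6.81e-06), with 5.51, 5.60 and 6.13 in Unt. The D_MgHCF libraries thus exceeded not only DOX but also Unt. Zfp36 (tristetraprolin), a CCCH protein that binds AU-rich messages and speeds their decay, had 2.11, 2.03 and 1.97 FPKM in Unt, 1.84, 1.82 and 1.07 in DOX and 1.37, 2.07 and 1.90 in D_DXZ, but 11.5, 9.46 and 7.81 in D_MgHCF. This rise over DOX was 2.04 ± 0.17 (SE, limma adjusted p = 1.05e-05) in a gene that no library of the 3 other groups held above 2.11 FPKM. Each D_MgHCF library exceeded the untreated level.

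Zfp703 and Zfp503, a pair of related corepressors without a C2H2 finger pattern, both rose. Zfp703 had 6.43, 7.37 and 6.93 FPKM in Unt, 4.19, 2.48 and 2.83 in DOX, and 15.6, 16.9 and 15.3 in D_MgHCF, a rise over DOX of 2.04 ± 0.16 (SE, limma adjusted p = 6.99e-06). Zfp503 went from 2.02, 0.610 and 0.697 FPKM in DOX to 6.96, 5.82 and 5.54 in D_MgHCF, a rise of 1.81 ± 0.25 (SE, limma adjusted p = 0.000183). Zfp296 went from 1.55, 0.880 and 0.594 to 7.67, 9.85 and 3.80, with the widest spread of the 3 (1.96 ± 0.28, SE, limma adjusted p = 0.000206). In all 3 genes every D_MgHCF library also lay above every Unt library.

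Zfp622, which takes part in maturation of the large ribosomal subunit, rose from 2.58, 2.12 and 1.35 FPKM in DOX to 9.60, 12.1 and 8.55 in D_MgHCF (1.89 ± 0.19, SE, limma adjusted p = 2.49e-05), beside 6.91, 7.75 and 7.77 in Unt. Zfp830 reached 3.53, 8.37 and 8.71 in D_MgHCF, where replicate 1 stood apart from its mates (1.92 ± 0.33, SE, limma adjusted p = 0.000731). Zfp574 and Zfp747 completed the 8 largest rises, both at 1.84. Zfp747 rested on 41, 11 and 10 reads in DOX and shares near-identical stretches with 2 genes, one of them Zfp764, which makes its level uncertain.

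The 16 genes that fell in D_MgHCF were led by Zfp414, from 7.54, 9.12 and 10.7 FPKM in DOX to 2.47, 1.90 and 2.51 (-1.61 ± 0.13, SE, limma adjusted p = 7.81e-06). Its level was similar in Unt, at 10.1, 10.0 and 11.3, and in D_DXZ, at 9.26, 9.66 and 10.7, so that the D_MgHCF libraries alone stood apart. Zfp207 (BuGZ), a spindle protein that brings Bub3 to kinetochores, had 21.6, 23.2 and 21.6 FPKM in Unt, 29.5, 39.0 and 41.4 in DOX, and 10.4, 11.3 and 13.4 in D_MgHCF (-1.56 ± 0.13, SE, limma adjusted p = 1.04e-05). Zfp106 reached 12.4, 11.8 and 16.1 in D_MgHCF (-1.53 ± 0.13, SE, limma adjusted p = 1.11e-05). In FPKM both genes were above Unt in DOX and below Unt in D_MgHCF, with no overlap between the 3 groups, but with TPM their differences between DOX and Unt turned to -0.65 and -0.46.

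The next largest falls were those of Zfp131, Zfp938, Zfp979, Zfp523 and Zfp57, between -1.13 and -0.83. Zfp131 shares short near-identical stretches with 55 other genes, and Zfp979 shares longer ones with 4 genes, among them Zfp600, Zfp978 and Zfp980, so that reads could have been divided among them. Zfp57, a KRAB protein that guards genomic imprints together with Trim28, had 10.1, 10.9 and 10.1 FPKM in DOX and 6.74, 5.74 and 4.02 in D_MgHCF (-0.83 ± 0.17, SE, limma adjusted p = 0.00235). With TPM the falls of Zfp523, Zfp57 and Zfp326 turned into differences of 0.09, 0.26 and 0.42 that were not called, whereas Zfp414 and Zfp207 were the 2 genes still called lower.

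**Figure D3:**
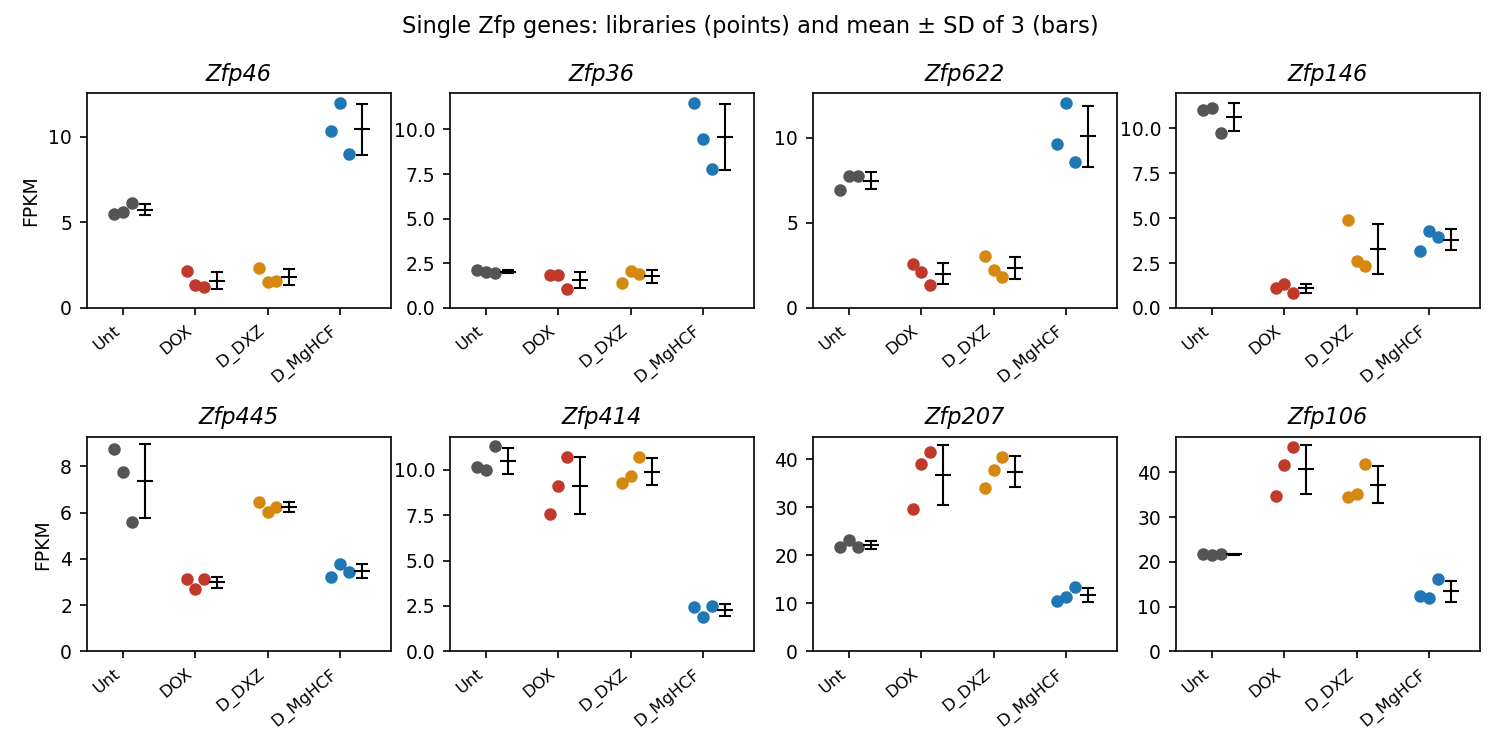
FPKM of 8 Zfp genes in each of the 12 libraries (points, in the order of replicates 1 to 3) with the mean and SD of each group of 3 beside them. Zfp46, Zfp36 and Zfp622 are high in D_MgHCF, Zfp146 is highest in Unt, Zfp445 is high in Unt and D_DXZ, and Zfp414, Zfp207 and Zfp106 are lowest in D_MgHCF.

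Promoters are shown for the gene furthest below Unt in DOX (Zfp146), for the strongly induced decay factor (Zfp36) and for the spindle gene that moved against most others (Zfp207), so that their base composition can be compared. Each window runs from 250 bases before to 50 after a RefSeq start (GRCm38.p6), 5′ to 3′ on the strand of the gene, at chr7:30169692-30169991 (minus strand), chr7:28379179-28379478 (minus strand) and chr11:80383029-80383328 (plus strand). Capitals mark matches, on either strand, to the CCAAT box (CCAAT), the TATA box (TATAAA), the GC box (GGGCGG), the E-box (CACGTG), the cyclic AMP element (TGACGTCA), the AP-1 site (TGACTCA), the Ets site (CCGGAAGT) or the 11-base Zfp143 site described next; none of these contains another.
Zfp146: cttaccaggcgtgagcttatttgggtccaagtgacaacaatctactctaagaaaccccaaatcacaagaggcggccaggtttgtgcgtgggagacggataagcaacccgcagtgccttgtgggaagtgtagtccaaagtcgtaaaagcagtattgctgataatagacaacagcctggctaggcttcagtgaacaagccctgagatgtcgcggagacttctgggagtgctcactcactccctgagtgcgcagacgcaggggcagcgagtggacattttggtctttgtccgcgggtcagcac
Zfp36: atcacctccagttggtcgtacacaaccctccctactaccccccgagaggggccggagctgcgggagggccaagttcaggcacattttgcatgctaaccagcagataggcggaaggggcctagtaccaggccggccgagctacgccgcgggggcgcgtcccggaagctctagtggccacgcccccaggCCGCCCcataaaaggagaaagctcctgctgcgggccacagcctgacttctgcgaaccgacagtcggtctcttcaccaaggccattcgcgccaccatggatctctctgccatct
Zfp207: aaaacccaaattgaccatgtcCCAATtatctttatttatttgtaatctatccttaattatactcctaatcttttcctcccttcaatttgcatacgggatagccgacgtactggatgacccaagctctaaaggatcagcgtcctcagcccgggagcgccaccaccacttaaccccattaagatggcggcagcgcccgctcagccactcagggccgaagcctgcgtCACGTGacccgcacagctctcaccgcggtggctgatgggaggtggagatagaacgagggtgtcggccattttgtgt
The Zfp146 window held none of these letters, that of Zfp36 held a GC box on the opposite strand, and that of Zfp207 held a CCAAT box and an E-box. CpG dinucleotides numbered 13, 21 and 17. RefSeq promoters were found by symbol for 172 of the 205 genes (212 windows), whose median of 17 CpG lay between 22 for the comparison set (9843 windows) and 7 for all 32851 windows. The GC box stood in 51.4% of the Zfp windows, 66.5% of the comparison set and 35.7% of all windows. The CCAAT box stood in 43.9%, 38.5% and 37.4%, the E-box in 7.55%, 10.6% and 7.15%, the Ets site in 11.3%, 9.12% and 3.89%, and the TATA box in 6.13%, 6.32% and 13.6%.

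An 11-base site, in capitals in the lines that follow, is the core of the element read by Zfp143, itself a member that binds promoters. On either strand it stood in 5 of the 212 Zfp windows, 2.36%, against 0.752% in the comparison set and 0.286% of all windows. The 5 sites are shown with 10 bases on each side, oriented so that the site reads forwards, with the site in capitals. They lie at chr8:111643408-111643438 (minus strand), chr7:24081865-24081895 (minus strand), chr11:58307011-58307041 (plus strand), chr7:24270337-24270367 (minus strand) and chr4:147848430-147848460 (minus strand).
Zfp1: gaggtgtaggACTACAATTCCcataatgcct
Zfp180: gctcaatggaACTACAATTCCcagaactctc
Zfp692: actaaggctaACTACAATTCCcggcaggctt
Zfp93: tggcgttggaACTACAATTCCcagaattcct
Zfp933: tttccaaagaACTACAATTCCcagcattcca
Zfp143 had 7.04, 7.15 and 7.26 FPKM in Unt, 2.61, 1.59 and 2.01 in DOX, and 4.19, 5.02 and 7.65 in D_MgHCF, a rise over DOX of 1.09 ± 0.23 (SE, limma adjusted p = 0.00293). The 5 genes did not move alike, since Zfp1 was among the lowest in DOX against Unt (-2.02) and Zfp692 among the 7 called higher (0.89). A match is a description of the letters and not a bound site.

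Against DOX, D_DXZ changed no Zfp gene at an adjusted p under 0.05, and the background was 0.0% in both directions. At an unadjusted p under 0.05, limma called 35 genes higher and 1 lower, beside backgrounds of 7.33% and 8.22%, and voom on the recovered reads called 0 after adjustment. The median difference was 0.20, against -0.06 over the 9733 genes, and 66 genes were without overlap in the higher and 2 in the lower direction, beside 13.7% and 13.8%. Library by library, the Zfp median exceeded that of the comparison set by 0.250 ± 0.133 (SD, n = 3). Without replicate 1 of D_DXZ the median difference was 0.14, and without replicate 1 of DOX it was 0.25.

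Zfp445, which protects imprints as Zfp57 does, was an example of a gene high in D_DXZ but not in D_MgHCF. Its FPKM was 8.74, 7.74 and 5.62 in Unt, 3.15, 2.71 and 3.12 in DOX, 6.45, 6.02 and 6.26 in D_DXZ, and 3.20, 3.78 and 3.44 in D_MgHCF. The D_DXZ libraries did not overlap DOX, but the difference of 0.86 ± 0.14 (SE) had a limma adjusted p of 0.133. Compared directly, Zfp445 was lower in D_MgHCF than in D_DXZ by a difference of -0.70 ± 0.14 (SE, limma adjusted p = 0.00193). Zfp146 (0.99, limma adjusted p = 0.211) and Zfp866 (0.79, limma adjusted p = 0.309) had the other largest positive differences in D_DXZ, and Zfp185, an actin-associated LIM protein, was the gene with a negative one at an unadjusted p under 0.05 (-0.29, limma adjusted p = 0.481). Zfp445 shares near-identical stretches with 2 pseudogenes, which makes its level uncertain.

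Between the protective treatments, 94 Zfp genes rose and 20 fell in D_MgHCF compared with D_DXZ, beside backgrounds of 31.6% and 37.9%. The median difference was 0.37, against -0.06 over the 9733 genes. Among genes below 10 FPKM in Unt, the background was 40.6% higher and 23.7% lower with a median of 0.25. Of the 182 Zfp genes at that level, 47.8% rose and 7.14% fell, with a median of 0.42. The 2 medians thus lay closer together than over all levels. Zfp703 (2.27 ± 0.16, SE), Zfp296 (2.22 ± 0.28, SE) and Zfp503 (2.07 ± 0.25, SE) had the largest positive differences, and Zfp414 (-1.73 ± 0.13, SE), Zfp207 (-1.60 ± 0.13, SE) and Zfp106 (-1.41 ± 0.13, SE) the largest negative ones. All 6 had a limma adjusted p of at most 0.000114. TPM moved the counts to 147 and 6, beside a background of 60.6% and 12.6%. Quantile normalization moved them to 61 and 41, beside a background of 28.8% and 31.9%, while the direction of the median, 0.11, stayed positive. D_MgHCF against DOX and D_MgHCF against D_DXZ share the D_MgHCF libraries.

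**Figure D4:**
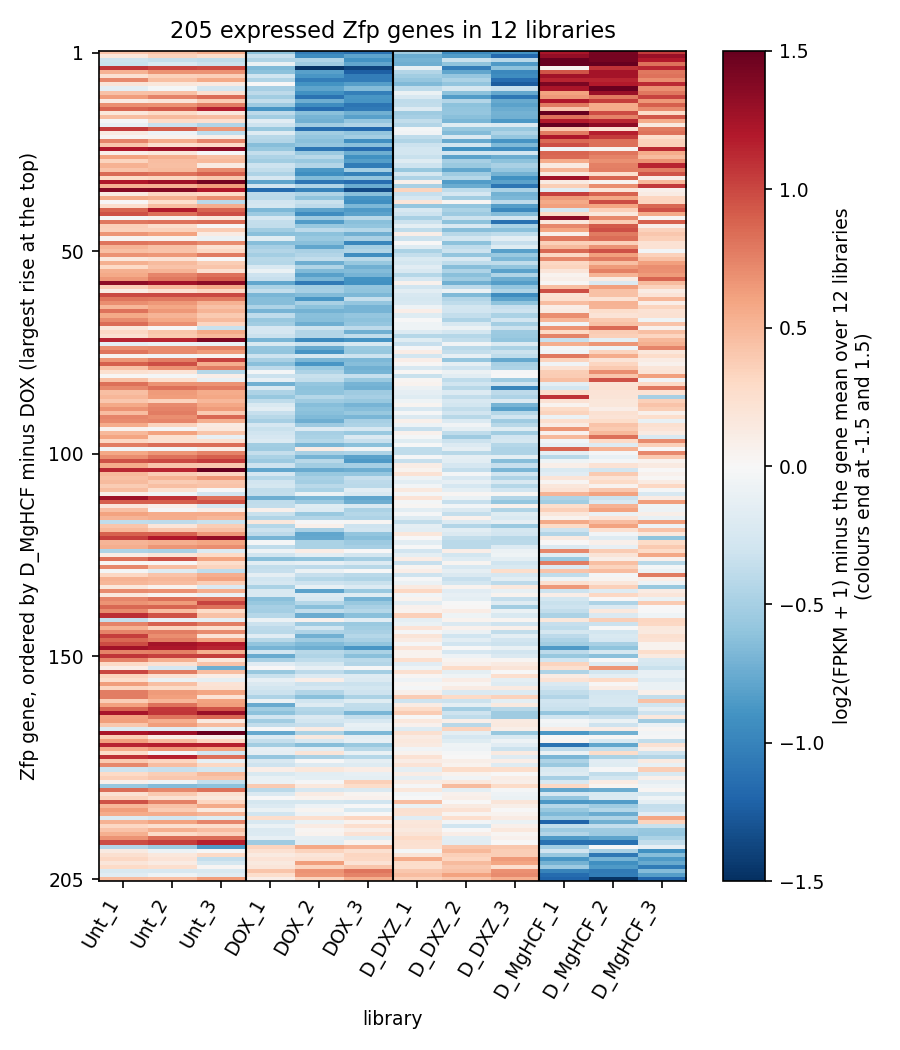
Each row is 1 of the 205 Zfp genes, ordered by the difference between D_MgHCF and DOX, and each column is 1 library; colours give log2(FPKM + 1) minus the mean of the gene over the 12 libraries. Most rows are above their mean in Unt and below it in DOX, the upper rows are highest in D_MgHCF, and the rows at the bottom, which include Zfp414 and Zfp207, are lowest there.

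The distance of the Zfp genes from other genes differed with their level in untreated cells. In D_MgHCF against DOX, the 52 Zfp genes with a mean of 1 to 2 FPKM in Unt had a median difference of 0.49, close to 0.44 for the 805 genes of that class. In the higher classes the medians were 0.68 against 0.44 at 2 to 5 FPKM (91 Zfp genes), 0.84 against 0.18 at 5 to 10 (39 genes) and 0.40 against -0.76 at 10 or more (23 genes). For DOX against Unt the Zfp medians were -0.75, -0.91, -1.40 and -0.67 in the same classes, beside -0.42, -0.53, -0.37 and 0.48. The pseudocount of 1 shrinks changes of low genes in both sets.

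**Figure D5:**
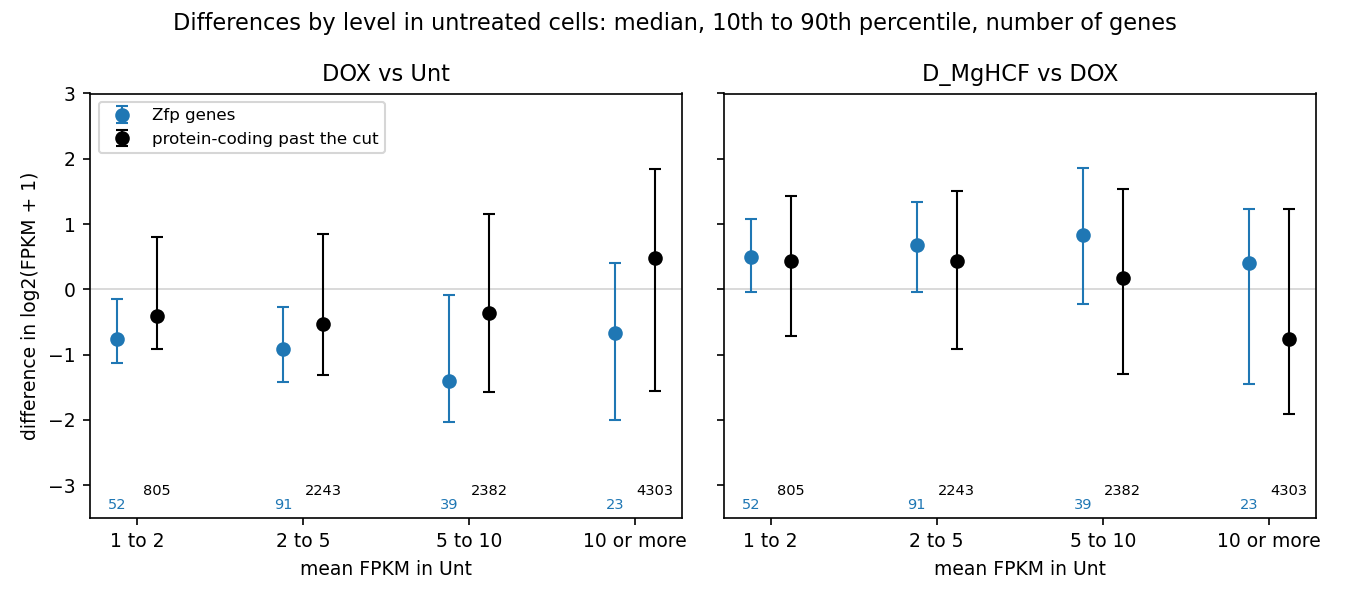
Median difference in log2(FPKM + 1), with bars from the 10th to the 90th percentile of genes, by mean FPKM in Unt for Zfp genes (blue) and all protein-coding genes past the cut (black), with the number of genes at the bottom. For D_MgHCF against DOX the 2 medians nearly coincide at 1 to 2 FPKM (0.49 and 0.44) and part at 10 or more (0.40 and -0.76).

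The 5 highest expressed Zfp genes in Unt differed among themselves in D_MgHCF against DOX, with 2 called higher (Zfp740 and Zfp771), 1 called lower (Zfp207) and 2 not called, where 22.3% of all genes of 10 FPKM or more were higher and 58.8% lower. Zfp598, a ubiquitin ligase that detects collided ribosomes, was the highest in Unt at 50.7, 55.0 and 59.6 FPKM, with 36.8, 31.8 and 30.5 in DOX and 31.1, 39.7 and 70.5 in D_MgHCF (0.42 ± 0.23, SE, limma adjusted p = 0.158). The D_MgHCF libraries spread widely and overlapped DOX. Zfp740 had 40.04, 39.3 and 41.2 FPKM in Unt, 15.5, 11.1 and 10.3 in DOX and 24.3, 26.3 and 43.0 in D_MgHCF (1.25 ± 0.21, SE, limma adjusted p = 0.000699). Zfp771 rose by a small margin (0.45 ± 0.16, SE, limma adjusted p = 0.0338), a call lost without any 1 DOX library or without D_MgHCF replicate 2 or 3 (adjusted p of up to 0.0862), and Zfp706, which shares near-identical stretches with 12 genes, was not called (-0.43 ± 0.30, SE, limma adjusted p = 0.263).

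By family, 46 of 84 KRAB genes rose and 3 fell in D_MgHCF against DOX (54.8% and 3.57%), with a median difference of 0.52, beside 35.4% and 39.5% in the comparison set and 58.5% and 7.80% over all 205 Zfp genes. The counts were 23 and 2 of 34 for zf-C2H2 (median 0.75), 6 and 0 of 9 for SCAN (median 0.79), and 42 and 10 of 74 for genes without a family (median 0.53). Grouped by fingers, the medians were 0.82 for 0 to 2 fingers (24 genes), 0.71 for 3 to 6 (34 genes), 0.62 for 7 to 11 (76 genes) and 0.52 for 12 or more (71 genes). The 10th to 90th percentiles overlapped widely in each split, and no difference between these classes was tested. In addition, the spans of 88 members overlap that of another gene, for 41 of them on the same strand. Among those named here are Zfp36, Zfp703, Zfp296, Zfp106, Zfp414, Zfp326, Zfp740 and Zfp143. Whether exons overlap was not examined and the use of strand is not stated, so their reads could include those of a partner. A stretch of at least 150 bases that is at least 95% identical to a transcript of another gene was found in 41 members, for 17 of them in a gene with a zinc finger name and otherwise often in an unrelated gene. The 41 members with such a stretch had a median of 0.41, and the other 164 had 0.68.

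Of the 14 runs of neighbouring Zfp genes, 13 had a median above 0 in D_MgHCF against DOX, and single members went both ways within several of them. The share of members called higher was 56.8% in runs and 59.7% outside them, beside 35.4% in the comparison set. The 3 runs with the most members are described first. On chromosome 7, the 10 members between 127233061 and 127885996 (GRCm38), Zfp553, Zfp771, Zfp768, Zfp747, Zfp764, Zfp688, Zfp689, Zfp629, Zfp668 and Zfp646, all rose in D_MgHCF against DOX, by 0.45 to 1.84 with a median of 0.97, the smallest being that of Zfp771, whose call is lost without any 1 DOX library or without D_MgHCF replicate 2 or 3. Of these, Zfp629 was the gene whose profile was most like the median profile of the 205 genes, with Pearson's r of 0.981 over the 12 libraries, a description over libraries that share groups. It had 3.68, 4.34 and 4.02 FPKM in Unt, 1.48, 1.25 and 1.38 in DOX, 2.13, 1.97 and 1.60 in D_DXZ, and 3.12, 2.93 and 2.99 in D_MgHCF. The genes least like the median profile were Zfp326 (r = -0.91), Zfp106 (r = -0.80) and Zfp692 (r = -0.79).

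The run of 15 members on chromosome 17 between 21008941 and 22867134, of which 13 are KRAB genes, had a median of 0.67 in D_MgHCF against DOX, with 9 called higher and 0 lower, where the background was 35.4% and 39.5%. Another run on chromosome 7, between 29768552 and 30169750 and ending with Zfp146, had 10 members with a median of 0.55 and 5 called higher in D_MgHCF. In DOX against Unt the differences of that run ranged from -2.48 to -0.53, with a median of -1.31, and in D_MgHCF against Unt the median was -0.72. Not all runs moved this way. The 3 genes Zfp979, Zfp984 and Zfp933 on chromosome 4 had a median of -0.03, with 0 called higher and 1 lower. A run of 6 on chromosome 17 that holds Zfp414 ranged from -1.61 to 1.43, with 2 called higher and 1 lower. In all, 81 members lay in runs, with 46 called higher and 4 lower, and of the 124 members outside runs 74 were called higher and 12 lower.

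Members with a known molecular role moved in both directions. Of 10 genes that bind promoters or enhancers or act on chromatin, 6 rose and 1 fell in D_MgHCF against DOX, shares near the 58.5% and 7.80% of all 205 members and beside a background of 35.4% and 39.5%. Zfp281, a factor of pluripotent cells, rose from 2.19, 1.23 and 1.05 to 5.35, 9.25 and 6.21 FPKM (1.67 ± 0.24, SE, limma adjusted p = 0.000223), and Zfp148, Zfp410 (which shares near-identical stretches with 8 genes), Zfp217, Zfp462 and Zfp143 also rose, while Zfp131 fell and Zfp335, Zfp292 and Zfp644 were not called. Both lineage genes past the cut, Zfp703 and Zfp516, rose. Zfp516, known from brown fat, went from 2.60, 1.76 and 1.46 FPKM in DOX to 7.99, 6.75 and 8.76, close to 7.48, 7.40 and 7.94 in Unt.

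Among 5 RNA-binding members, Zfp36 rose, Zfp106 and Zfp326 fell, and Zfp346 and Zfp638 were not called in D_MgHCF against DOX, where the background was 35.4% higher and 39.5% lower for this and the following lists. Of the genes that act in imprinting or retroelement silencing, Zfp809 rose (0.48, limma adjusted p = 0.0469) and Zfp57 fell, while Zfp445, Zfp568 and Zfp932 were not called. The call of Zfp809 was lost when any 1 of 11 libraries was left out, all but D_MgHCF replicate 1, with an adjusted p of up to 0.138, and with a replicate block it was 0.0672. Zfp708 and Zfp42 from the same list were not members, with mean FPKM of at most 0.0153 in any group. Of 4 genes of mitosis, genome stability and ubiquitin transfer, Zfp830 rose, Zfp207 and Zfp91 fell, and Zfp365 was not called. The fall of Zfp91, -0.40, became a difference of 0.76 with TPM, and its call was lost without 1 of 9 libraries (any of Unt, DOX replicates 2 and 3, D_DXZ replicates 2 and 3, D_MgHCF replicates 1 and 2), with an adjusted p of up to 0.142.

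Genes of the corepressor machinery of KRAB proteins were taken from a list of 26, of which 25 were tested. In D_MgHCF against DOX 8 rose and 12 fell, shares near the background of 35.4% and 39.5%, with a median difference of -0.15 that changed sign to 0.79 with TPM, 0.52 with FPKM over the summed reads and 0.03 after quantile normalization. Trim28 had 61.1, 69.9 and 77.1 FPKM in Unt, 77.6, 91.7 and 101 in DOX, 79.3, 78.1 and 96.6 in D_DXZ, and 24.3, 27.6 and 37.9 in D_MgHCF (-1.57 ± 0.17, SE, limma adjusted p = 3.85e-05). Its partner Setdb1 went the other way, with 9.11, 9.96 and 9.99 FPKM in Unt, 4.47, 3.72 and 4.00 in DOX, and 7.54, 9.53 and 8.52 in D_MgHCF (0.91 ± 0.10, SE, limma adjusted p = 4.24e-05). Both signs held with TPM, where Trim28 had a difference of -0.38 that was no longer called and Setdb1 one of 2.13.

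Among the other corepressor genes, the heterochromatin proteins Cbx1 (-1.23) and Cbx3 (-1.86), the NuRD subunits Chd3 (-1.84), Mta1 (-1.55), Hdac1 (-1.52) and Hdac2 (-1.53) and the methyltransferase Dnmt1 (-1.35) fell in D_MgHCF against DOX. Atf7ip (1.31), the Setdb1 partner, Morc2a (1.59), Dnmt3a (1.02), Fam208a (0.95) and Suv39h1 (0.78) rose. With TPM, Cbx3 (-0.91), Chd3 (-0.68), Hdac1 (-0.32) and Hdac2 (-0.37) were still called lower, while Cbx1 (-0.07), Dnmt1 (-0.18) and Mta1 (-0.38) lost their calls. The other 4 falls, of Cbx5, Chd4, Pphln1 and Uhrf1, turned into differences of 0.70 to 0.79. Atf7ip2 was listed near 0 and not tested.

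Other gene families with zinc finger names were counted under the same cut. In D_MgHCF against DOX, 24 of 36 Zbtb genes rose and 2 fell (median 0.85), 9 of 13 Zscan and Zkscan genes rose and 0 fell (median 0.93), and 8 of 11 Zfp genes with a letter in the name rose and 0 fell (median 0.85). Zc3h genes, whose CCCH fingers bind RNA, had 7 higher and 2 lower of 15 (median 0.43), and Zmym and Zmynd genes 4 higher and 1 lower of 9 (median 0.51). Zdhhc genes, which are palmitoyltransferases, had 4 higher and 9 lower of 17 (median -0.40), a direction that turned to 0.53 with TPM and 0.25 with FPKM over the summed reads and held at -0.60 after quantile normalization. The other 5 families kept a positive median under these scalings, with sizes that differed widely, as for Zbtb (0.51 after quantile normalization and 2.06 with TPM) and Zmym and Zmynd (0.18 and 1.66). The background for each is the 35.4% higher and 39.5% lower given above.

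The values at the cut show how narrow it is. The 3 members just inside had a lowest Unt library of 1.030 (Zfp658), 1.032 (Zfp560) and 1.035 (Zfp229) FPKM, and the 3 genes just outside 0.9985 (Zfp235), 0.9965 (Zfp524) and 0.9921 (Zfp971). All 205 members passed the filter on low values of the test, which follows from the cut in the 3 Unt libraries.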

How the data were processed

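RNA of H9c2 cells (TRIzol, poly(A) selection, paired-end 150-base reads) was sequenced by the study, whose processing notes name HISAT2 2.0.5 and the GRCm38 (mm10) mouse genome. The counting tool, the annotation release and the use of strand are not given in the sources used here. The deposited table holds FPKM per gene for the 12 libraries, computed by the authors, and no comparison columns; 0 sample columns were left unused. FPKM times gene length and a recovered factor per library (11.6 to 25.5) gave whole reads for 100% of values (tolerance 0.01), at 16626514 to 19365119 reads per library.

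Groups came from the labels. The test was limma 3.58.1 (R 4.3.3, trend) on log2(FPKM + 1) for the 25044 genes above 0 in at least 3 libraries, with the 4 groups in 1 fit and Benjamini-Hochberg adjustment over all genes. A call is an adjusted p under 0.05, and a difference on this scale understates changes of low genes. On data simulated for D_MgHCF against DOX over 25044 genes, 70 of 100 planted log2 changes of 1 and 97 of 100 of 2 were called. Members and lists were chosen with earlier results of these data known. The genes named are the 5 highest in Unt, the 8 largest differences each way for D_MgHCF against DOX and DOX against Unt and the 3 largest for the others (called or, for D_DXZ against DOX, at an unadjusted p under 0.05, without overlap, with a mean of at least 1 FPKM in the higher group), the role and corepressor lists, the 3 genes on each side of the cut, and the genes most and least like the median profile. Genes named by their position in a run or by a promoter site were chosen after their values were seen.

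Promoters came from RefSeq (GRCm38.p6). Finger and KRAB patterns were read from translated GENCODE M21 coding sequences, not from RefSeq proteins as planned. Near-identical stretches are at least 95% identical to a transcript of another gene over at least 150 bases (BLAST 2.17.0), and do not make the genes copies of each other. Alternatives were other cuts, filters, pseudocounts, scalings, voom on the recovered reads, a fit of the 2 groups compared, a replicate block, and each library left out.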

Additional observations from a re-analysis of the deposited data

How the results depend on the processing

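The direction of the Zfp median held under every alternative run for all 6 comparisons. The gap is the median of the Zfp genes minus that of the comparison set. The cause of the shifts was not tested. For D_MgHCF against DOX the median was 0.67 (gap 0.80) with a cut of 2 FPKM, 0.35 (0.29) for all Zfp genes tested, 1.03 (1.07) with a pseudocount of 0.1, 0.32 (0.32) after quantile normalization and 1.09 (1.13) with voom, and the gap was 0.24 against genes below 10 FPKM. TPM gave 183 higher, 2 lower (background 64.2% and 13.5%) and a median of 1.71, and FPKM over the summed reads 4 lower (19.3%), 1.15 and a gap of 0.43. For D_DXZ against DOX, an unadjusted p gave 35 higher and 1 lower, the gap over all Zfp genes was 0.13, and the median was 0.33 (0.40) with a pseudocount of 0.1, 0.38 with TPM and 0.35 (0.43) with voom. Quantile normalization lowered the median to 0.15 (0.15), and with FPKM over the summed reads it was 0.26 (0.17). For D_MgHCF against D_DXZ, the gap was 0.57 with a cut of 2 FPKM and 0.13 against genes below 10 FPKM. With both sets cut to below 10 FPKM, the medians were 0.42 for 182 Zfp genes and 0.25 for the comparison set. The Zfp median was 0.16 (0.11) for all Zfp genes, 0.61 (0.69) with a pseudocount of 0.1 and 0.63 (0.72) with voom. A fit of these 2 groups called 62 higher, TPM 147 higher and 6 lower (60.6% and 12.6%) with a median of 1.35, FPKM over the summed reads 8 lower (19.3%) with 0.85 (0.29), and quantile normalization 61 higher and 41 lower (28.8% and 31.9%) with 0.11 (0.17).

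For DOX against Unt the median was -0.84 with a cut on the mean of all libraries, -1.05 (gap -0.98) with a cut of 2 FPKM, -0.55 (-0.56) for all Zfp genes, -1.49 (-1.32) with a pseudocount of 0.1, -0.62 (-0.50) after quantile normalization and -1.54 (-1.38) with voom, and the gap was -0.47 against genes below 10 FPKM. TPM gave 0 higher and -2.30 (-0.89), and FPKM over the summed reads 0 higher and -1.44 (-0.55). For D_DXZ against Unt the median was -0.40 (-0.40) for all Zfp genes, -1.11 (-0.90) with a pseudocount of 0.1 and -1.15 (-0.94) with voom, and the gap was -0.35 against genes below 10 FPKM. TPM gave 0 higher and -1.96, FPKM over the summed reads 0 higher and -1.21 (-0.42), and quantile normalization 9 higher and -0.50 (-0.37). For D_MgHCF against Unt the median was -0.27 with a cut on the mean, -0.16 for all Zfp genes and -0.47 (-0.29) with either a pseudocount of 0.1 or voom. The gap was -0.24 against genes below 10 FPKM, a cut of 2 FPKM gave 17 higher, the fit of these 2 groups 16 higher, and TPM 17 higher and -0.59 (-0.27). After quantile normalization the median was -0.38 (-0.22).

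Zfp91 changed sign in D_MgHCF against DOX, to 0.76 with TPM and 0.49 with FPKM over the summed reads. In DOX against Unt, TPM turned Zfp106 (-0.46), Zfp207 (-0.65), Zfp346 (-0.87), Zfp692 (-0.38), Zfp219 (-0.87) and Zfp185 (-0.59) past 0 with a call in the other direction, and Zfp326 (-0.11) without one, and FPKM over the summed reads turned Zfp346 (-0.44) and Zfp219 (-0.44).

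With 1 library left out, D_MgHCF against DOX had 105 to 124 higher and 12 to 22 lower, a median of 0.57 to 0.64 and a gap of 0.57 to 0.71. D_DXZ against DOX kept 0 calls, with 0.14 to 0.25 and 0.19 to 0.32. D_MgHCF against D_DXZ had 71 to 99 higher, 19 to 29 lower, 0.30 to 0.46 and 0.37 to 0.53. DOX against Unt had 5 to 8 higher, 136 to 163 lower, -0.97 to -0.89 and -0.84 to -0.77. D_DXZ against Unt had 4 to 6 higher, 112 to 145 lower, -0.84 to -0.69 and -0.68 to -0.51. D_MgHCF against Unt had 19 to 40 higher, the latter without D_MgHCF replicate 3, 70 to 95 lower, -0.40 to -0.31 and -0.22 to -0.16.

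Deviations of same-numbered libraries correlated at -0.314 to 0.306, over 0.1 in 2 of 18 pairs. Both were between DOX and D_DXZ (replicate 1, 0.306, and replicate 3, 0.220), with replicate 2 at 0.033. Libraries with different numbers reached 0.258. With 3 libraries per group these values cannot settle whether replicates were paired. A fit with the replicate block called 118 higher and 16 lower in D_MgHCF against DOX, 90 and 19 in D_MgHCF against D_DXZ, 6 and 154 in DOX against Unt, and 0 in D_DXZ against DOX. Shares of all genes called are not given for the block or for libraries left out, so these counts are not compared with a background. Zfp809 was not called in D_MgHCF against DOX under the block (limma adjusted p = 0.0672). Counts are limited by depth for the 24 Zfp genes with fewer than 10 reads in a library.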

Other observations

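The 162 Zfp genes outside the cut include 128 that could be tested. In D_MgHCF against DOX, 42 of them rose and 2 fell (32.8% and 1.56%), with a median difference of 0.13 on the log2(FPKM + 1) scale, and of the other 6210 tested protein-coding genes outside the cut 36.3% rose and 3.61% fell, with a median of 0.09. In D_MgHCF against D_DXZ the Zfp genes outside the cut had 21.1% called higher and 1.56% lower, with a median of 0.05, and the other genes 35.9% and 3.46%, with a median of 0.08, and the difference between these sets was not tested. DOX against Unt had 3 called higher and 59 lower (2.34% and 46.1%), with a median of -0.23, where the other protein-coding genes outside the cut had 5.43% and 5.46% and a median of 0.01. The cut removed genes by their Unt level, so these differences from Unt are a description.

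A few Zfp genes outside the cut had an FPKM of at least 1 in every library of a treated group, namely 3 in DOX (Zfp69, Zfp971 and Zfp931), 5 in D_DXZ and 5 in D_MgHCF. Zfp69 had mean FPKM of 1.10 in Unt, 1.23 in DOX, 1.10 in D_DXZ and 2.75 in D_MgHCF. Zfp931 had 1.46, 2.93, 2.66 and 0.904 in the same order, a difference between D_MgHCF and DOX of -1.08. In each library of a group, 40 Zfp genes were listed at 0 in Unt, 40 in DOX, 34 in D_DXZ and 21 in D_MgHCF, and 15 were listed at 0 in all 12 libraries.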
